A study of Bos taurus with 14 samples.

Results

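The miR-26 family of milk small extracellular vesicles (sEVs) was represented by 2 mature miRNA, bta-miR-26a and bta-miR-26b (miR-26a and miR-26b hereafter), chosen by name from the deposited table. They account for 3 of its 350 miRNA/precursors, since miR-26a is listed with mir-26a-1 and with mir-26a-2 and miR-26b with mir-26b, and 0 of the 350 entries carried the name miR-26c. Milk was taken from 14 Holstein cows with subclinical mastitis, an inflammation of the udder without visible signs. The 7 cows of the control group received no supplement, and the 7 cows of the inulin group were given 300 g/d of inulin, a fermentable plant fructan, for 5 wk after 1 wk of adaptation. All cows ate the same total mixed ration, each library comes from the milk of 1 cow, and the labels give neither age nor a processing batch. The total miRNA count of a cow ranged from 4165 to 415020 (control cows 2 and 5), and 3 counts, taken as the limit of detection, made up between 0.000723% and 0.072% of it.

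A miRNA guides the silencing complex to messenger RNA that pairs with its seed, the bases near its 5′ end. miR-26a and miR-26b share their seed and hence most of their predicted targets, of which EZH2, a histone methyltransferase that silences genes, is the best known. Their precursors lie within genes of the CTDSP family of small phosphatases, which act on the retinoblastoma protein, and the miRNA and their host genes are known for restraining entry into the cell cycle. All 3 precursors were found by name in RefSeq (ARS-UCD2.0). There mir-26a-1 lies within CTDSPL, mir-26a-2 within CTDSP2 and mir-26b within CTDSP1, and MIR26C has the same interval as MIR26A-1. The mature forms of miR-26a and miR-26b are close to identical, and how the counting divided reads that fit both is not given in the sources used here.

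Both members were found in the sEVs of every cow. miR-26a had between 20 and 7941 counts in a cow and was among the 14 most counted mature miRNA of each of the 14 cows, whereas miR-26b had between 5 and 1094 counts and ranked between 15 and 30. The 2 entries of miR-26a hold nearly the same values, with equal counts in 12 cows and a difference of at most 3 counts in the others, so miR-26a is described with mir-26a-2 alone. Levels are given as the percentage of all miRNA counts of the cow. This total lists the reads of a mature miRNA again for each further precursor, and let-7 entries held from 41.1% to 91.2% of it. With such shares, fewer vesicles carrying a miRNA and fewer copies per vesicle cannot be told apart.

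The miR-26a share in the control group had a lowest value of 0.375%, a median of 0.447% and a highest value of 1.91%. In the inulin group the lowest value was 0.326%, the median 0.574% and the highest 0.804%. Control cow 5 stood above all others, and 6 of the 7 inulin cows fell inside the range of the control group. For miR-26b the control group had a lowest value of 0.0926%, a median of 0.120% and a highest value of 0.264%, again in control cow 5. The inulin group ran from 0.0607% through a median of 0.111% to 0.195%. The ranges of the groups overlapped for both members.

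**Figure D1:**
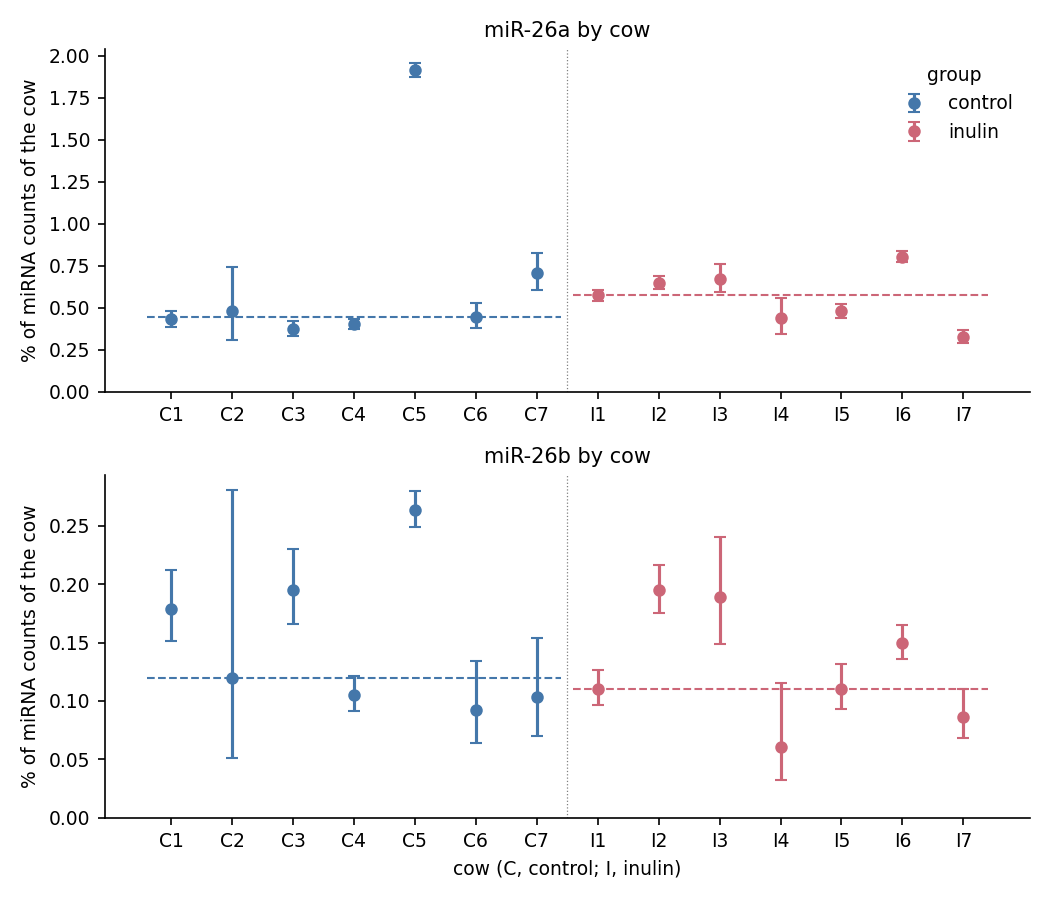
Share of miR-26a (top) and miR-26b (bottom) in the miRNA counts of each cow, in percent, with 95% Wilson intervals for counting error as bars and the group median as a dashed line. Control cow 5 reaches 1.91% for miR-26a, while the other 13 cows lie between 0.326% and 0.804%.

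The intervals of a share (95% Wilson) cover counting error only. They were widest in control cow 2, where 20 counts put miR-26a between 0.311% and 0.741% and 5 counts put miR-26b between 0.0513% and 0.281%. For control cow 5 the interval of miR-26a was 1.87% to 1.96%, and those of all 13 other cows ended below it. Among these 13 cows the highest share of miR-26a was 2.46 times the lowest, and for miR-26b it was 3.21 times the lowest.

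The first comparison asked whether the level of either member differed between cows with and without inulin (mean ± SD over the n = 7 cows of a group, two-sided exact permutation tests). bta-miR-26a averaged 0.680% ± 0.555 of the counts without inulin and 0.563% ± 0.161 with it. The difference of -0.116 percentage points lay within the cow-to-cow spread (exact permutation p = 0.857). bta-miR-26b averaged 0.151% ± 0.0634 without and 0.129% ± 0.0508 with inulin, which is -0.0226 percentage points (exact permutation p = 0.476). Both members together reached 0.831% ± 0.602 and 0.692% ± 0.202, again without a detectable difference (exact permutation p = 0.814). By rank within the cow, miR-26a averaged position 9.0 ± 2.45 among control cows and 11.1 ± 2.73 among inulin cows (exact permutation p = 0.179). miR-26b averaged position 20.1 ± 4.53 and 22.6 ± 4.12 (exact permutation p = 0.344). With the ratio described further on, 6 single measurements were tested, and the smallest p adjusted over them was 0.837 (exact permutation). The smallest unadjusted p that 7 against 7 cows allow is 0.000583.

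For miR-26a the direction of the mean difference depended on control cow 5. This cow held 83.0% of the miR-26a counts of its group and 52.1% of all counts of the group. Without it, the mean of the control group fell to 0.474% ± 0.120 (SD), below that of the inulin group, and the difference turned to 0.0895 percentage points (exact permutation p = 0.285). The group medians also stood higher with inulin, by 0.127 percentage points (exact permutation p = 0.476), with 5 of 7 inulin cows above the control median. In the deposited counts, which are not scaled to the total, miR-26a averaged 1366 ± 2908 reads per control cow and 779 ± 731 reads per inulin cow (SD, n = 7 each), but the medians were 271 and 542. For miR-26b this cow held 67.9% of the counts of its group, and without it the difference was -0.00386 percentage points.

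The shares also depended on what they were measured against. With let-7 left out of the total, miR-26a averaged 3.44% ± 3.88 among control cows and 3.97% ± 2.67 among inulin cows, so that the difference became positive, at 0.530 percentage points (exact permutation p = 0.748). For miR-26b the same total gave 0.660% ± 0.460 and 0.970% ± 0.764, or 0.310 percentage points more with inulin (exact permutation p = 0.384). Neither was larger than the spread between cows.

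Across all miRNA/precursors, edgeR's quasi-likelihood test compared the groups over the 210 entries that summed to 10 counts or more, with TMM normalization. The study calls an entry where p before adjustment is under 0.05 and the log2 fold change exceeds 1 in either direction. By this rule 9.05% of the entries were called, 6.19% as lower and 2.86% as higher with inulin, and 0 of the 3 miR-26 entries were among them. DESeq2 called 4.29%, of which 2.86% of the entries were lower and 1.43% higher, and likewise 0 of the 3. After adjustment over all entries, 0 passed 0.05 in either tool, against 19 (edgeR) and 10 (DESeq2) before it. For miR-26a/mir-26a-2 the log2 fold change with inulin was -0.23 (standard error 0.470, adjusted p = 0.985 from edgeR), with a 95% interval of -1.21 to 0.74, which corresponds to 0.433-fold to 1.67-fold. The entry of mir-26a-1 gave the same log2 value of -0.23. The value of miR-26b/mir-26b was -0.20 on the log2 scale (standard error 0.516, edgeR adjusted p = 0.985), with a 95% interval of -1.27 to 0.87, or 0.415-fold to 1.83-fold. A change to less than 0.5-fold or to 1.5-fold thus remained within both intervals. The median log2 fold change of all tested entries was -0.40, and relative to it miR-26a stood 0.17 and miR-26b 0.20 higher. With the TMMwsp method, which moved this median to 0.07, both members turned positive, at 0.39 and 0.36, or 0.32 and 0.29 above the median. On the 62 entries kept by the filter filterByExpr they were below the median instead, at -0.16 and -0.21 relative to it. The direction also turned with single cows, for miR-26a without control cow 3 (0.08), control cow 5 (0.37) or inulin cow 2 (0.05), and for miR-26b without control cow 3 (0.23) or control cow 5 (0.08).

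**Figure D2:**
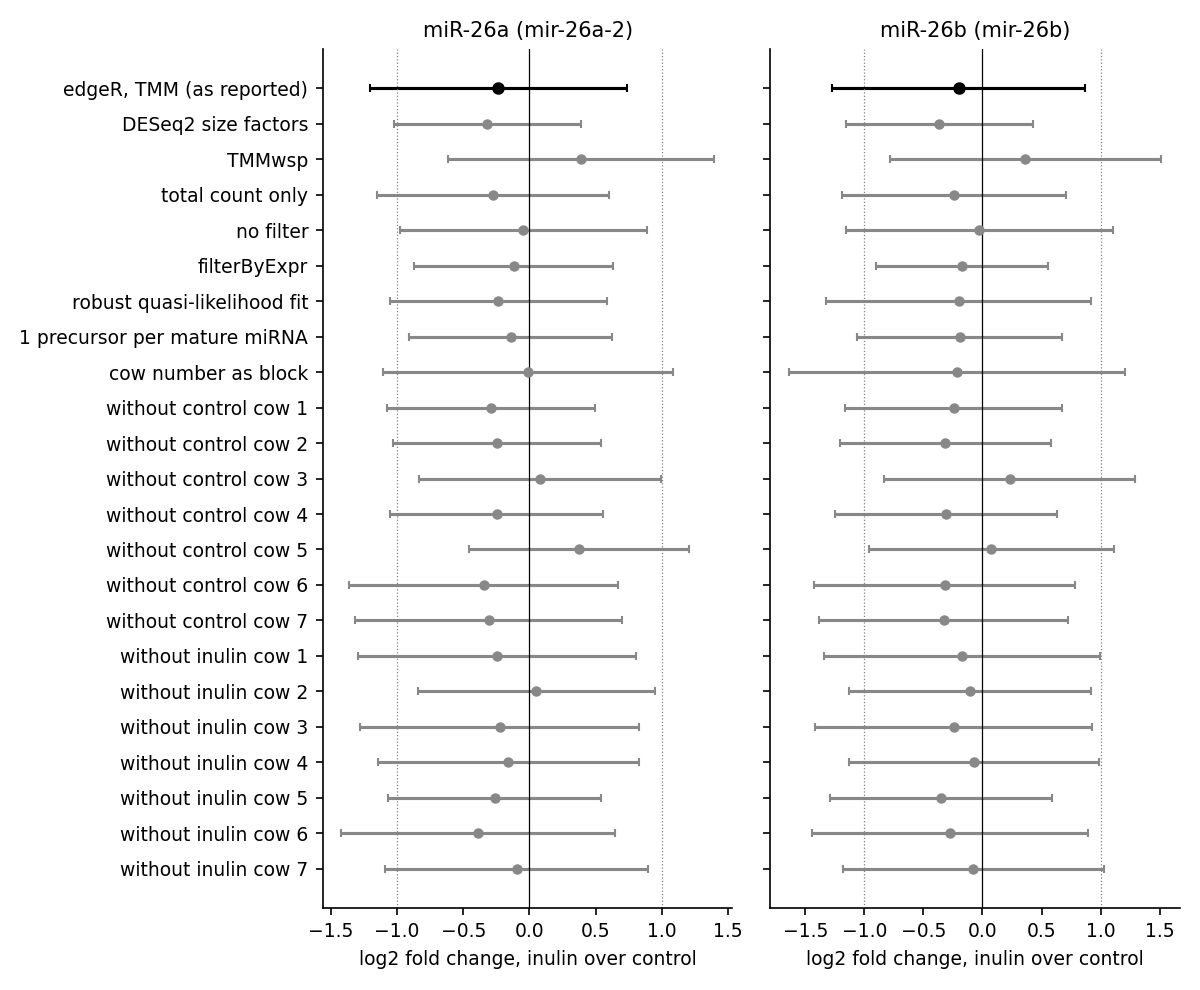
Log2 fold change of miR-26a (left) and miR-26b (right), inulin over control, in edgeR as reported (black) and with other settings or 1 cow left out (grey), with 95% intervals as bars and dotted lines at the limits of the calling rule. All intervals include 0, and without control cow 5 the values are 0.37 for miR-26a and 0.08 for miR-26b.

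The spread of both members between cows lay below that of all entries together and in the middle among abundant miRNA. The dispersion that edgeR estimated was 0.581 for miR-26a/mir-26a-2 and 0.560 for miR-26b/mir-26b, against 1.43 in common for all tested entries. Among the 25 mature miRNA with a mean share of at least 0.1%, a limit chosen after seeing the data, the standard deviation of log2 CPM (counts scaled to the TMM-normalized library size, with a prior count of 2) over 14 cows was 0.75 for miR-26a, the 13th smallest, and 0.72 for miR-26b, the 11th smallest. Without control cow 5 miR-26a moved to the 7th smallest, with 0.51, and miR-26b to the 14th, with 0.66. The 3 smallest belonged to let-7b, let-7a-5p and let-7f and the 5 largest, each above 2, to miR-7, miR-184, miR-1246, miR-11980 and miR-2904.

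The second comparison was between the members themselves. miR-26a exceeded miR-26b in 14 of 14 cows, with a median ratio of 4.17. In the control group the ratio ran from 1.92 in control cow 3 through a median of 4.0 to 7.26 in control cow 5, and in the inulin group from 3.34 through 4.34 to 7.22. On the log2 scale, with 0.5 added to each count, it averaged 1.98 ± 0.71 among control cows and 2.17 ± 0.38 among inulin cows (SD, n = 7 each), which differ by 0.18 (exact permutation p = 0.558). The ratio does not depend on the total of the cow, and its direction was kept with each cow left out in turn, from 0.01 without control cow 3 to 0.33 without control cow 5.

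The balance of the members was also read as the share of miR-26b in the miR-26 counts. It made up 34.2% in control cow 3, with a 95% Wilson interval of 29.8% to 38.9%, and 29.3% in control cow 1. In control cow 5 it made up 12.1%, with an interval of 11.5% to 12.8%. The intervals of 11 cows ended below that of control cow 3. The lowest share, in control cow 5, was not set apart from the 12.2% of inulin cow 4. That value rests on 9 miR-26b counts and has an interval of 6.53% to 21.5%. The inulin cows lay between 12.2% and 23.1%.

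**Figure D3:**
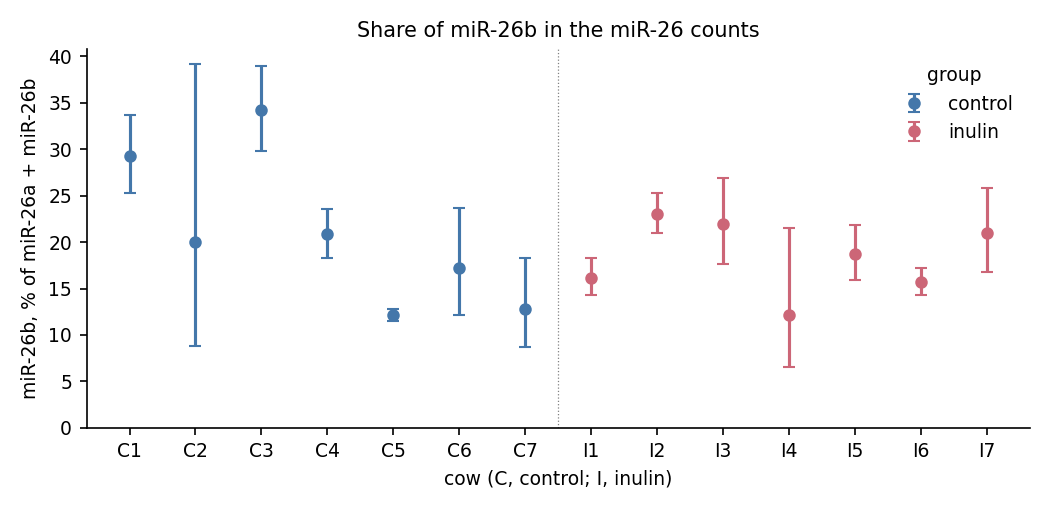
miR-26b as a percentage of the summed counts of miR-26a and miR-26b in each cow, with 95% Wilson intervals for counting error. Control cows 1 and 3 stand highest, at 29.3% and 34.2%, and the inulin cows lie between 12.2% and 23.1%.

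Over the 14 cows, log2 CPM of miR-26b rose with that of miR-26a (Pearson's r = 0.713, permutation p = 0.00262, adjusted p = 0.0131 over 5 relations), while the rank correlation did not pass (Spearman's rho = 0.534, permutation p = 0.0519, adjusted p = 0.0865). Without control cow 5, r was 0.615 (permutation p = 0.0248) and rho 0.418 (permutation p = 0.156). Without the cows farthest from the median of miR-26a, control cow 5 and inulin cow 7, r was 0.501 and no longer passed (permutation p = 0.0956). For the inulin cows alone, r reached 0.856 (exact permutation p = 0.0153, n = 7) and rho 0.786 (exact permutation p = 0.0480, n = 7). Among the control cows it was 0.634 (exact permutation p = 0.134, n = 7) and rho 0.179 (exact permutation p = 0.713, n = 7), and without control cow 5 the r of the remaining control cows was 0.00475. Both values of a cow share its library, total and scaling factor.

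**Figure D4:**
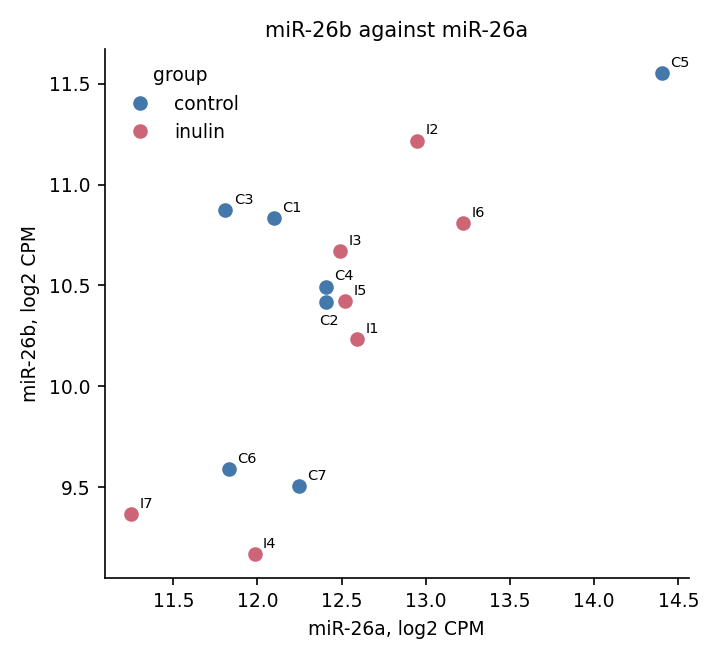
log2 CPM of miR-26b against log2 CPM of miR-26a, each point a cow (C, control; I, inulin). Control cow 5 is highest on both axes, at 14.4 for miR-26a and 11.6 for miR-26b, and the other control cows show no common trend.

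The levels were also set against the total miRNA count of the cow, called depth here. Reads not assigned to a miRNA are not part of it. Against the log10 of the total count, log2 CPM of miR-26a gave r = 0.532 (permutation p = 0.0516, adjusted p = 0.086) and rho = 0.670 (permutation p = 0.0103, adjusted p = 0.0516), and that of miR-26b gave r = 0.558 (permutation p = 0.0368, adjusted p = 0.086) and rho = 0.538 (permutation p = 0.0494, adjusted p = 0.0865), so that neither passed after adjustment. Without control cows 2 and 5, with the lowest and the highest total count, r was 0.556 for miR-26a (permutation p = 0.0608) and 0.666 for miR-26b (permutation p = 0.0211), both before adjustment. Without control cow 5 alone r was 0.369 (permutation p = 0.214) and 0.452 (permutation p = 0.120). The rank correlation was then 0.588 (permutation p = 0.0383) for miR-26a and 0.423 (permutation p = 0.152) for miR-26b, both before adjustment. Within the groups r was 0.535 (control) and 0.574 (inulin) for miR-26a (exact permutation p = 0.243 and 0.172, n = 7 each), with rho of 0.393 and 0.857 (exact permutation p = 0.396 and 0.0238). The control value turned to r = -0.230 without control cow 5. For miR-26b r was 0.602 and 0.642 (exact permutation p = 0.148 and 0.117, n = 7 each), with rho of 0.750 (exact permutation p = 0.0663) and 0.571, and the control r was 0.338 without control cow 5. The log2 ratio of the members gave r = 0.0337 (permutation p = 0.909) and rho = 0.182 (permutation p = 0.533), with r of 0.0943 within the control group and -0.261 within the inulin group (exact permutation p = 0.840 and 0.561, n = 7 each). The share of miR-26a against that of let-7 gave r = 0.323 (permutation p = 0.238) and rho = 0.464 (permutation p = 0.0983), and within the groups 0.428 and 0.434 (exact permutation p = 0.393 and 0.316, n = 7 each).

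Control cow 5, the cow with the highest total count, was compared with the others in the same 25 mature miRNA, as a description made after seeing its value. Its share of miR-26a was 3.99 times the median of the other cows, behind only miR-191, at 4.20 times. Next came miR-30a-5p, a broadly expressed miRNA, at 3.83 times and miR-16a, known as a brake on the cell cycle, at 3.23 times. miR-26b followed in position 6, at 2.38 times, just before miR-200c, an epithelial miRNA, at 2.37 times. In 10 of the 25, both members included, this cow was above all others, whereas miR-184 and miR-7 were at 0.0374 and 0.0467 times the median. Epithelial markers summed to 1.55% of the counts in this cow, the highest of all cows, and leukocyte markers to 0.0860%, also the highest. Whether depth or these markers account for the miR-26a level of control cow 5 was not tested.

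**Figure D5:**
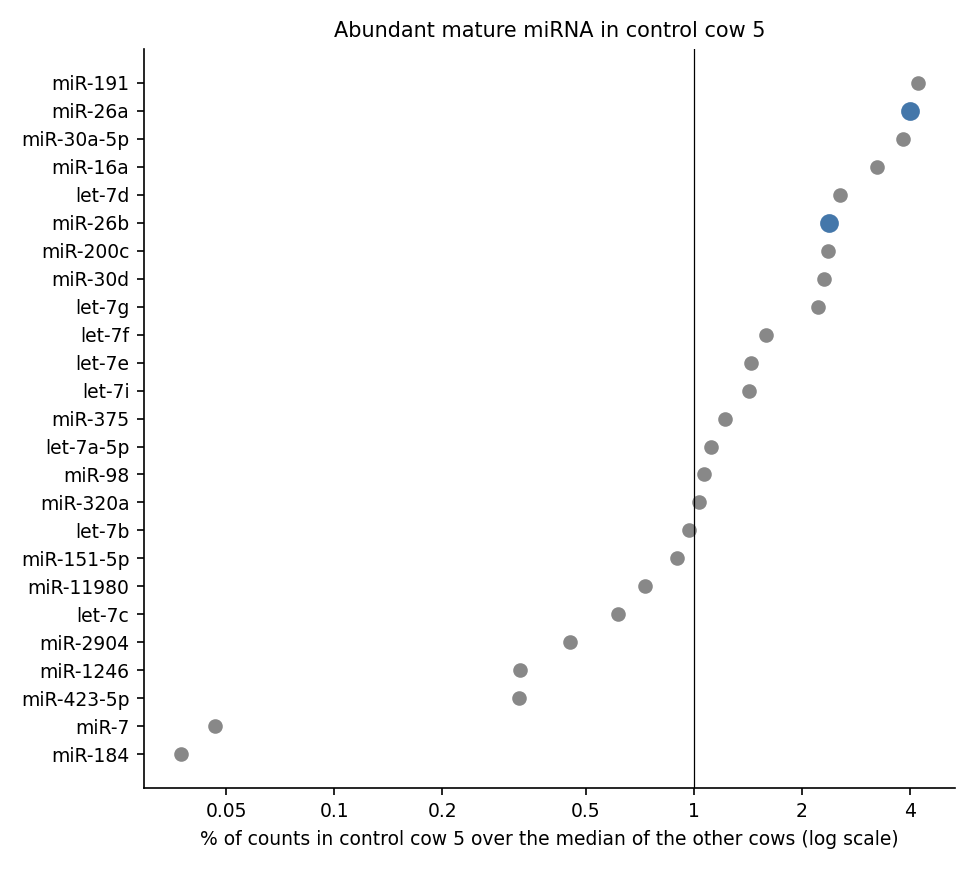
Share of each of the 25 mature miRNA with a mean share of at least 0.1% in control cow 5, divided by the median share of the other 13 cows, on a log axis, with miR-26a and miR-26b in blue. miR-26a is second, at 3.99 times, and miR-26b sixth, at 2.38 times.

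By mean share over the 14 cows, miR-26a had position 11 of 268 mature miRNA, with 0.621% ± 0.397 (SD, n = 14). Directly above it was miR-320a, which bypasses Drosha processing, with 0.699% ± 0.339 (SD, n = 14), and directly below miR-200c, with 0.532% ± 0.219 (SD, n = 14). miR-26a was above miR-320a in 5 of 14 cows and above miR-200c in 11 of 14. Its mean differed from that of each neighbour by less than any of these SDs between cows. The order within a cow was not tested. miR-26b had position 24, with 0.140% ± 0.0564 (SD, n = 14), between let-7e with 0.150% ± 0.0619 (SD, n = 14) and miR-98, a let-7 relative, with 0.110% ± 0.0347 (SD, n = 14). It exceeded let-7e in 7 of 14 cows and miR-98 in 11 of 14. The mean of miR-26b also differed from that of each neighbour by less than their SDs, and the order within a cow was again not tested.

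The miRNA that varied most like the members were sought among 63 other mature miRNA with counts in at least 10 cows, by Spearman's rho of log2 CPM over the 14 cows, given without a test because all values of a cow share its library and scaling. Most like miR-26a were miR-141 (0.771), an epithelial miRNA, let-7e (0.692), miR-30a-5p (0.688), miR-16a (0.670) and let-7g (0.670), and miR-26b had position 18. The highest, miR-141, had rho of 0.786 within the control group and 0.571 within the inulin group. The others had lower values within the control group, where let-7g had 0.143 and let-7e 0.286 against 0.929 and 0.821 within the inulin group, miR-30a-5p 0.393 against 0.750 and miR-16a 0.429 against 0.536. Least like it were miR-184 (-0.578), let-7c (-0.455), miR-760-3p (-0.453), miR-11987 (-0.420) and miR-7 (-0.393).

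For miR-26b the order was a different one. Most like it were miR-151-3p (0.818), miR-200c (0.688), miR-103 (0.640), let-7a-5p (0.635) and miR-99a-5p (0.625), and miR-26a had position 11. The mean share of miR-151-3p was only 0.00684%, below the share that 3 counts made up in inulin cow 4 (0.0202%). Its value thus rests on few counts in the cows with low totals. The other arm of that precursor, miR-151-5p, with a mean share of 0.474%, had rho of 0.231 and position 39. At the other end stood miR-184 (-0.881) and let-7c (-0.785), followed by miR-11980 (-0.464), miR-760-3p (-0.447) and miR-11987 (-0.442). The opposite course of miR-184 was seen within the control group (-0.857) and within the inulin group (-0.964), and that of let-7c with -0.679 and -0.857. Without control cow 5 the values were -0.852 and -0.808.

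Markers of mammary epithelium, leukocytes, red blood cells, muscle and liver were read in the same libraries, each mature miRNA counted with 1 precursor. Of the 7 epithelial markers all were found, and miR-200c, miR-375, miR-141 and miR-200b had the most counts. Their summed share ran from 0.360% to 1.55% in control cows and from 0.602% to 1.05% in inulin cows. By the rule, 0 of 7 were called beside 9.05% of all entries. The median log2 fold change was -0.19 beside -0.40 over all entries, with 3 values positive and 4 negative. It ranged from -1.19 for miR-200b (standard error 1.15) to 1.10 for miR-375 (standard error 0.539). Both values exceeded the fold limit of the rule, but neither entry met its limit for p. The mean share of miR-375 was 0.105% ± 0.0637 in control cows and 0.229% ± 0.0988 in inulin cows (SD, n = 7 each). Of the 7 leukocyte markers 6 were found, led by miR-155, miR-223, miR-142-5p and miR-142-3p, and they summed to 0% to 0.0860% in control cows and 0.00454% to 0.0486% in inulin cows. Of the 5 tested, 1 was called, miR-142-5p, which was lower with inulin and had 32 counts from 2 control cows, beside 6.19% of all entries called as lower. Of 3 red blood cell markers only miR-486 was found, with 5 counts, and the liver miRNA miR-122 had 9 counts in 2 inulin cows. The muscle markers reached 0.386% in control cow 1 and 0.169% in inulin cow 4, nearly all from miR-1 with 332 counts, against medians of 0.00138% and 0.00177%, and the 1 that was tested was not called.

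Other miRNA known to act on EZH2 were read beside the family. Of 5 on the list, let-7a-5p, let-7b and let-7c were found, and 0 of the 3 were called, where 9.05% of all entries were. Their log2 fold changes were 0.29, 0.39 and 0.42, all positive, where those of miR-26a and miR-26b were negative in the same fit. With TMMwsp the miR-26 values were positive, and those of the let-7 entries were not read there. The standard errors of the let-7 values were 0.226, 0.210 and 0.361, and their adjusted p-values from edgeR lay between 0.69 and 0.914. Whether the let-7 values differ from those of the miR-26 family was not tested.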

How the data were processed

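The authors obtained read counts per miRNA/precursor with miRDeep2 and miRBase, after adapter trimming, a length window and quality filtering. The submitters' notes name the genome build ARS-UCD1.2. The deposited table holds these counts, without normalization, and RPM values that the authors scaled to the total of each cow, which differed from recomputed values by at most 0.005. Its lengths of mature miRNA in nt, another unit listed by the authors, and its sum over cows were not needed. Everything below was computed from the counts, with the groups taken from the sample titles, and 0 columns remained without a cow.

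The miR-26 entries were taken by name, and the members, lists and rules were chosen with earlier results of these data known. The miRNA named beside the members are those next to them in mean share, the 5 most and 5 least alike by Spearman's rho, and at most 4 per marker list. Those named for control cow 5 and for the size of their spread were chosen after their values were seen.

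edgeR (version 4.0.16, R 4.3.3) was run on entries with at least 10 counts over all cows, with Benjamini-Hochberg adjustment over all of them. Its standard error is the log2 fold change divided by the root of the F statistic. Single values were compared by two-sided exact permutation over all 3432 assignments of the cows, and correlations with 100000 permutations or, within a group, exactly. Alternatives were DESeq2 (1.42.0), limma-voom (limma 3.58.1), other scalings, filters and totals, a block for the number of the cow, and each cow left out. The group medians and the relations without control cow 5 were added after seeing the data. Tables were handled in pandas 2.3.3, tests in SciPy 1.17.1 with NumPy 2.4.6, and plots in matplotlib 3.10.9, under Python 3.11.15. The fits were also run on simulated counts with the same dispersion for every entry, and no result given here rests on that run. The total counts of 4165 to 415020 set the precision of a share.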

Additional observations from a re-analysis of the deposited data

Results flagged for a closer look

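Dixon's ratio was used to find a cow that stood apart from its group, in 16 groups of 7 values of the miR-26 measurements. Chance alone gives about 0.8 such groups. There were 3, all of them values of control cow 5 and all resting on its miR-26a counts. They were its miR-26a share of 1.91% (ratio 0.783), its summed miR-26 share of 2.18% (ratio 0.817) and its miR-26a rank of 4 (ratio 0.571). The miR-26b share of the same cow, 0.264%, did not stand apart (ratio 0.401), nor did its miR-26a share of the counts without let-7, 11.2% (ratio 0.506).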

How the results depend on the processing

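Over all alternatives, 15 results gave 218 values, of which 192 kept their direction and their side of the threshold or stayed within 1.5 times a count, 20 changed direction, 2 lost significance and 4 counts moved further. The near-identical entry of mir-26a-1 is among them as a result of its own. For the log2 fold changes the threshold was on adjusted p, never below 0.818, so that keeping their side of it says little. In none of the alternatives was a miR-26 entry called (smallest unadjusted p = 0.335, from DESeq2 for miR-26b, adjusted p = 0.990, with adjusted p-values from 0.818 to 0.991 over its alternatives). With let-7 left out of the total, the differences in share turned positive, to 0.530 for miR-26a, 0.310 for miR-26b and 0.841 percentage points for both. By group medians they were 0.127 for miR-26a and 0.0842 for both. TMMwsp turned the log2 fold changes to 0.39 for both entries of miR-26a and 0.36 for miR-26b.

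With each cow left out, the difference ranged from -0.167 to 0.0895 percentage points for miR-26a, from -0.0336 to -0.00386 for miR-26b and from -0.193 to 0.0856 for both, highest without control cow 5 each time. The log2 fold change ranged from -0.39 to 0.37 for miR-26a and from -0.35 to 0.23 for miR-26b. That of miR-26a turned positive without control cow 3 (0.08), control cow 5 (0.37) or inulin cow 2 (0.05), and that of miR-26b without control cow 3 (0.23) or control cow 5 (0.08). The cause was not tested.

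The number of entries called, 19 of 210, moved to 75 of 350 without a filter and to 3 of 62 with filterByExpr. It moved to 9 of 210 with DESeq2 and to 7 of 210 with the cow number as a replicate block. Equal numbers mark different animals in the 2 groups, and the deviations of same-numbered cows correlated between -0.329 and 0.256, above 0.1 in 2 of 7 pairs. The block changed no call of the members, whose log2 fold changes in it were -0.01 (miR-26a) and -0.22 (miR-26b). The relation of miR-26b to miR-26a fell to r = 0.501 without control cow 5 and inulin cow 7 (permutation p = 0.0956). That of miR-26b to depth fell to 0.452 without control cow 5 (permutation p = 0.120) but was 0.666 without control cows 2 and 5 (permutation p = 0.0211, before adjustment). That of the ratio to depth turned to -0.276 without control cows 2 and 5 and to -0.161 without control cow 5. Depth limits miR-26b most, with 5 counts in control cow 2 and 9 in inulin cow 4.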
